A study of Saccharomyces cerevisiae with 8 samples.

Results

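Transcript levels of budding yeast lacking the Pif1 helicase were compared with those of wild type yeast in cultures labelled as given no zinc. The comparison is made of the 2 arrays titled pif1 mutant against wild type, out of 8 in the series, and covers the 4722 of 6212 yeast IDs on the table that had a value on both. The mutant carried the genotype pif1::KanMX in BY4741, a common laboratory strain, and the wild type was BY4741. Both were grown in YPD, a rich glucose medium, at 28 °C to an A660 of 0.6. The 4 arrays of zinc effects set cells kept in 5 mM zinc chloride for 1 h against cells without it, 2 arrays within pif1 and 2 within the wild type. The last 2 arrays set pif1 against wild type when both had received that zinc treatment. The labels name no number of mutant clones, and do not say whether the numbered arrays came from separate cultures. The p-values therefore measure the spread between arrays, which may be technical only.

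Pif1 is a DNA helicase that unwinds DNA from the 5′ towards the 3′ end and acts in both the nucleus and the mitochondria. In the nucleus it removes telomerase from chromosome ends and helps replication through structures such as G-quadruplexes. In the mitochondria it helps to maintain the mitochondrial genome. Yeast that loses mitochondrial function is known to switch on the retrograde response, in which the factors Rtg1 and Rtg3 induce the first enzymes of the TCA cycle, a source of glutamate precursors. Hap4 is known as the regulatory subunit of the activator that induces respiratory genes.

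Each array held RNA of both strains in 2 dyes, and these were exchanged: pif1 carried Cy3 on array 1 and Cy5 on array 2. All values below are log2 ratios of pif1 over wild type after each array was centred on its median, so that a value of 1 is a doubling relative to the median gene. Array 1 held 4752 values and array 2 held 5082 (76.5% and 81.8% of IDs). As deposited, their medians were −0.033 and −0.013. The 2 arrays correlated at r = 0.586 across genes, which are not independent replicates, and their within-pair SD was 0.215. Values lay mostly close to 0: the middle of the distribution ran between quartiles of −0.15 and 0.16, and the outermost percentiles were −0.66 and 0.90. The log base and the authors' normalization are not stated in the labels. The scale was taken as log2 from the size of the values, and the direction as pif1 over wild type from PIF1 itself.

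Values of other arrays bear on the zinc label of this comparison. If the 4 comparisons close a loop, the zinc effect in pif1 minus that in the wild type equals the pif1 effect with zinc minus that without it. Over 3857 genes with a value on all 8 arrays, the gap between these differences had an SD of 0.496 as labelled, and of 0.388 with the pif1 comparisons labelled with and without zinc exchanged. Exchanging the strains of the zinc comparisons instead gives that same SD by arithmetic, so the loop cannot tell these exchanges apart. For scale, the SD of the zinc difference between the strains was 0.358, and that of the mutant difference between the media was 0.265. The 51 genes that zinc raised 4-fold or more in the wild type, by its labels, were detected in part: 64.7% and 80.4% on the mutant arrays labelled with zinc, against 98.0% and 100% on those labelled without. The comparison is therefore called by its label throughout. Whether the labels of the pif1 comparisons or of the zinc comparisons were exchanged was not tested.

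PIF1 (YML061C), the deleted gene, was read first. It was at −4.896 as deposited on array 2, while array 1 held −17.324, a value taken as a placeholder and set to missing, so that PIF1 entered no test. Of the tested genes on either side by systematic name, on the left arm of chromosome XIII, OGG1 alone passed the threshold, as a fall. OGG1, a glycosylase that removes oxidised guanine from DNA, was at −1.34 and −1.04, a mean of −1.19 ± 0.22 (SD, n = 2), and it was 2.28-fold lower (limma adjusted p = 0.0173). It lies next to PIF1, and its ratios were closer to 0 than that of PIF1. MFT1, RPS1B, SML1 and NTE1 averaged −0.46, −0.24, −0.21 and −0.10 and did not pass the threshold. NTE1 had opposite signs on the arrays, at −0.38 and 0.19. TEM1 had no value on these arrays. Of the marker genes that BY4741 lacks as background, HIS3 was at 0.21 and −0.42 and URA3 at 0.31 and 0.20, and LEU2 and MET17 had no value. Both strains carry those deletions, so the URA3 values show that a spot can hold a value without its gene. What gave that signal was not tested. Of the genes particular to the a mating type, MFA2 was at −0.29 and 0.12, STE2 at 0.00 and 0.16 and STE6 at −0.37 and −0.02, and MFA1 had no value.

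More genes rose than fell in pif1 relative to the wild type. Of 4722 genes, 96 (2.03%) passed an adjusted p under 0.05: 68 were higher in pif1 (1.44%) and 28 lower (0.593%). These shares are the background for the calls in each list below. By sign, 32.1% of all genes tested lay above 0 on both arrays and 32.3% below 0 on both. Changes of 2-fold or more made up 32 of the rises and 10 of the falls. The highest mean was 3.51-fold above and the lowest 5.3-fold below the wild type. The test was limma's moderated test, with the spread pooled over all 8 arrays, and the smallest size to pass was 0.62. A further 142 genes were at least 1.5-fold from the wild type and did not pass. The calls need both arrays: with array 1 alone, 12 genes passed, and with array 2 alone, 0 passed, the lone array being assumed to vary like the others. Without any adjustment, 691 genes were under 0.05. The count depends on the spread used: 592 genes passed on the spread of the 2 arrays alone, 440 with arrays scaled to 1 spread, 291 with a replicate block, 212 with the 4 mutant arrays only and 71 with a dye term. When all arrays were set to the same distribution, 252 genes were higher and 184 lower, a more even split.

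**Figure D1:**
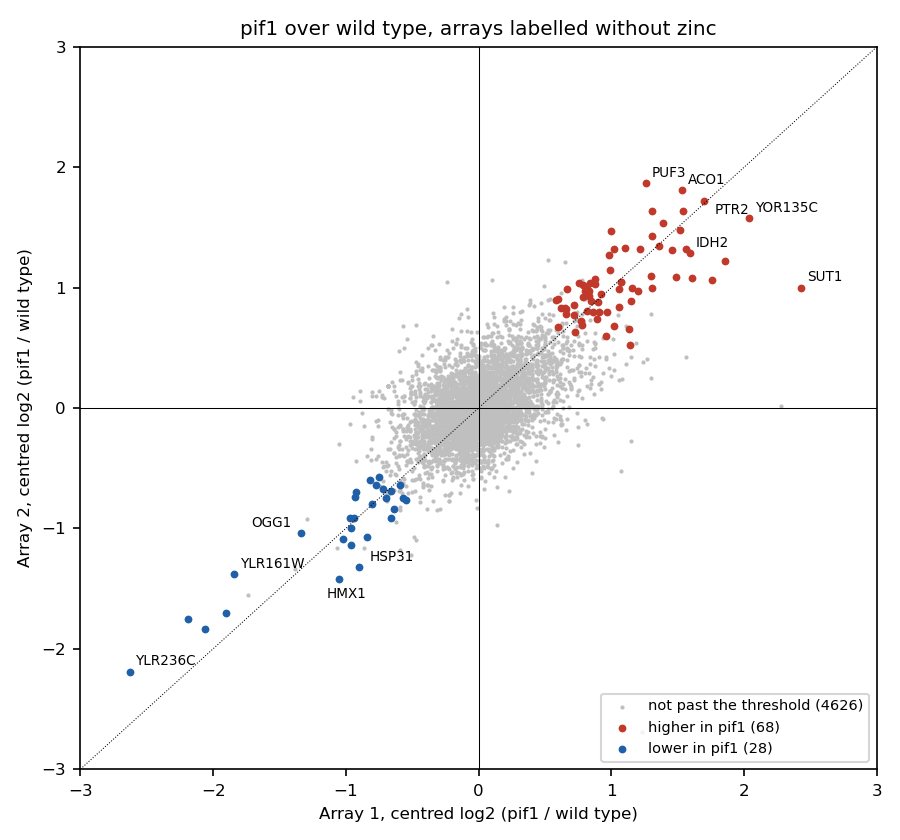
Centred log2 ratio of pif1 over wild type on array 2 (vertical) against array 1 (horizontal) for the 4722 genes tested. Red points are the 68 genes higher in pif1, blue points the 28 lower, grey points the 4626 others, and the dotted line marks equal values. SUT1 is the red point farthest from that line, at 2.43 and 1.00.

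Aconitase and isocitrate dehydrogenase genes of the TCA cycle, the mitochondrial pathway that oxidises acetyl groups, rose in pif1. ACO1, the aconitase that turns citrate into isocitrate, was at 1.53 and 1.81. IDH2 and IDH1, the subunits of the isocitrate dehydrogenase that follows it, were at 1.59 and 1.29 and at 1.22 and 1.32. On both arrays all 3 lay above 0.90, the upper percentile of the means of all genes tested. ACO1 averaged 1.67 ± 0.19 (SD, n = 2), 3.18-fold higher (limma adjusted p = 0.00125). IDH2 averaged 1.44 ± 0.22 (2.71-fold, adjusted p = 0.0051) and IDH1 1.27 ± 0.07 (2.41-fold, adjusted p = 0.00609).

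The enzymes on either side of this segment gave smaller values. CIT1, the citrate synthase just before aconitase, averaged 0.32 ± 0.11 (n = 2, limma adjusted p = 0.291). KGD1, of the dehydrogenase just after isocitrate dehydrogenase, averaged 0.22 ± 0.17 (adjusted p = 0.689), and LSC1, of succinyl-CoA ligase, averaged −0.09. CIT1, KGD1 and LSC1 were chosen after their values were seen. Of 17 genes tested in the TCA list, 3 were called, each as a rise (17.6%, against 1.44% of all genes tested). The list's median was 0.13, against −0.004 over all genes tested.

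**Figure D2:**
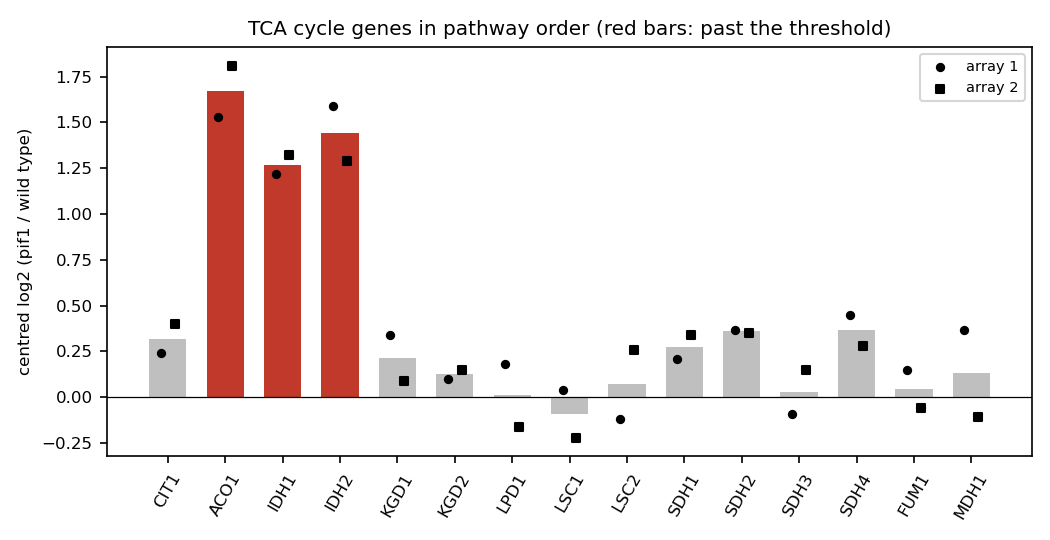
Centred log2 ratio of pif1 over wild type for 15 TCA cycle genes in pathway order. Bars are means of the 2 arrays, circles array 1 and squares array 2, and red bars passed the threshold. ACO1, IDH1 and IDH2 stand between 1.27 and 1.67, and SDH2, of succinate dehydrogenase and chosen after its value was seen, at 0.36.

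Of 13 tested genes of the retrograde response, 4 rose (30.8%, against 1.44% of all genes tested) and 0 fell, with a median of 0.31. They were ACO1, IDH2 and IDH1, which the TCA list holds too, and RTG3, which encodes a transcription factor of the response. RTG3 was at 1.06 and 0.84, a mean of 0.95 ± 0.16 (SD, n = 2, 1.93-fold, limma adjusted p = 0.0184). Genes commonly used to read this response gave lower values, none of which passed. CIT2, the peroxisomal citrate synthase and best known target, was at 0.24 and 0.16, a mean of 0.20 ± 0.05 (adjusted p = 0.547). DLD3, a lactate dehydrogenase and target, averaged 0.31 (adjusted p = 0.284), and RTG1, which encodes the partner of Rtg3, averaged 0.33. PYC1, pyruvate carboxylase, averaged −0.02. CIT2, DLD3, RTG1 and PYC1 were chosen after their values were seen.

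Iron-sulfur enzymes of amino acid synthesis were also among the genes with the largest rises. LEU1, the isopropylmalate isomerase of leucine synthesis, was at 1.54 and 1.64, a mean of 1.59 ± 0.07 (SD, n = 2, 3.01-fold, limma adjusted p = 0.00125). LYS4, the homoaconitase of lysine synthesis, was at 1.61 and 1.08, a mean of 1.34 ± 0.37 (2.54-fold, adjusted p = 0.0051). Both proteins belong to the aconitase family and carry an iron-sulfur cluster. With ACO1 they made up the 3 rises in the list of 30 tested iron-sulfur and heme enzymes, in which 0 fell. The list is not complete: CCP1 and RLI1, described below, also rose and are outside it. The list's median was 0.19, and 19 of the 30 (63.3%) lay above 0 on both arrays, against 32.1% of all genes tested. ILV3, an iron-sulfur dehydratase of valine and isoleucine synthesis, was at 0.93 and 0.80 (adjusted p = 0.0614). RLI1, an iron-sulfur ATPase needed for ribosome recycling and chosen after its values were seen, was at 1.02 and 0.68, a mean of 0.85 ± 0.24 (adjusted p = 0.0294). Leucine and lysine synthesis as wholes showed 1 rise each, of 12 branched-chain and 8 lysine genes. In the other amino acid synthesis list, 0 of 38 genes passed and the median was −0.17.

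Genes for the mitochondrial ribosome, which translates the few proteins encoded in mitochondrial DNA, shared a small upward shift. Of 61 tested, 56 (91.8%) were above 0 on both arrays, against 32.1% of all genes tested, and 1 was below 0 on both. The median was 0.35 (0.40 on array 1 and 0.34 on array 2). The share called was 1.64%, near the 1.44% of all genes tested that were higher. MRPS18, a protein of the small subunit, passed the threshold, at 0.66 and 0.82, a mean of 0.74 ± 0.12 (SD, n = 2, 1.67-fold, limma adjusted p = 0.0348). MRP4, another protein of that subunit, was at 0.88 and 0.54 (adjusted p = 0.157). The number of calls in this list was 0 with a dye term, 14 with a replicate block and 27 on the spread of the 2 arrays alone. Genes of mitochondrial protein import lay the same way without a call: 0 of 24 passed. On both arrays 16 (66.7%) were above 0, and the median was 0.20. TOM7, of the outer membrane import channel, was at 0.96 and 0.41, and TOM70, its receptor, was at 0.47 and 0.67. Cytosolic ribosomal proteins, by contrast, had 0 of 124 past the threshold and a median of −0.02. Subunits of the respiratory chain and ATP synthase had 0 of 29 past it and a median of 0.03. QCR9, of the third respiratory complex, was the highest of these, at 0.92 and 0.16.

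PUF3, DSS1, CCP1 and HAP4, whose roles bear on mitochondria, rose as single genes and were not counted as a group. PUF3 encodes a Pumilio protein that binds messenger RNAs of mitochondrial proteins, many of them for the mitochondrial ribosome. It was at 1.26 and 1.87, a mean of 1.56 ± 0.43 (SD, n = 2, 2.95-fold, limma adjusted p = 0.022). DSS1, the exonuclease of the complex that degrades mitochondrial RNA, was at 1.46 and 1.31 (mean 1.38 ± 0.11, adjusted p = 0.0051). SUV3, the helicase that works with Dss1, was at 0.59 and 0.35 and did not pass (adjusted p = 0.153).

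CCP1, the mitochondrial cytochrome c peroxidase, was at 1.06 and 0.99 (mean 1.03 ± 0.05, n = 2, limma adjusted p = 0.0184). HAP4, the regulatory subunit named above, was at 0.88 and 1.03, a mean of 0.95 ± 0.11 (adjusted p = 0.0173). It rose while the median of the respiratory chain list stood at 0.03. NAM2, the leucyl-tRNA synthetase of mitochondria, averaged 1.02, DML1, which takes part in mitochondrial inheritance, averaged 1.37, and MAM33, a matrix protein, averaged 0.64. HAP4, NAM2, DML1 and MAM33 all passed and were chosen after their values were seen. In the list of mitochondrial DNA maintenance, to which Pif1 itself belongs, DSS1 was the 1 rise and OGG1 the 1 fall among 15 tested genes. ABF2, which packages mitochondrial DNA, averaged −0.27, and MIP1, the mitochondrial DNA polymerase, averaged 0.04; both were chosen after their values were seen. Genes encoded in mitochondrial DNA were not analysed here.

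Genes of the nuclear processes in which Pif1 acts changed singly. Of 13 telomere and telomerase genes, CDC13, which caps chromosome ends by binding their single strand, was the 1 that rose, at 0.79 and 0.92 (mean 0.85 ± 0.09, SD, n = 2, limma adjusted p = 0.0488). It passed narrowly. RAP1, which binds the double-stranded repeats, was at 0.45 and 0.72 (adjusted p = 0.0624), and the list's median was 0.01. Of 21 genes of the DNA damage response, RNR3, the damage-inducible subunit of ribonucleotide reductase, rose, at 1.14 and 0.52 (mean 0.83 ± 0.44, adjusted p = 0.0481). RAD53, the checkpoint kinase, was at 0.47 and 0.87 (limma adjusted p = 0.107), and 4.76% of the damage response list was called. Other DNA helicases gave 0 calls of 13 tested, with SUV3 and MCM7 highest, at means of 0.47 and 0.38. RTT109, a histone acetyltransferase of replicating chromatin chosen after its values were seen, was at 0.91 and 0.80 (adjusted p = 0.0205).

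The fraction of genes past the threshold was higher near chromosome ends. Among the 10 IDs nearest the end of each arm by systematic name, 3 of 151 tested were higher and 6 lower (5.96%), against 64 higher and 22 lower of 4551 elsewhere (1.89%). The median of the end genes was −0.016 and that of the others −0.004. The share was 6.35% over 5 IDs per arm and 3.67% over 20. No test was made of this difference. COS, PAU and YRF1 family genes, which are subtelomeric and share sequence with one another, had 0 calls of 12, and COS12 was the farthest from 0, at 0.54 and 0.55. Outside the list of these families, YHL049C, at 1.36 and 1.35, and YHR218W, at 0.83 and 0.93, rose (limma adjusted p = 0.00354 and 0.0241). By name both lie near the ends of chromosome VIII, and both were chosen after their values were seen. By whole chromosome, medians ran between −0.05 (X) and 0.076 (VIII).

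The largest rises were spread over other functions. PTR2, the importer of small peptides, was at 1.70 and 1.72, a mean of 1.71 ± 0.01 (SD, n = 2, 3.27-fold, limma adjusted p = 0.00125), and its arrays lay almost on each other. SUT1, a transcription factor of sterol uptake, had the same mean from unequal arrays, 2.43 and 1.00 (1.71 ± 1.01, adjusted p = 0.0235). YOR135C was the highest of all, at 2.04 and 1.58 (1.81 ± 0.32, adjusted p = 0.00376). It is 1 of 5 called IDs that the reference table does not hold, and by its name it stands next to IDH2 (YOR136W) on the opposite strand. Whether probes of the 2 share sequence was not tested.

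NUP53, of the nuclear pore, was at 1.31 and 1.64, and AVO2, of the TORC2 kinase complex, was at 1.39 and 1.54. BSC1, for which no role is given here, was at 1.52 and 1.48, and OSI1, a gene named for its induction by oxidative stress, was at 1.86 and 1.22. All 4 passed. YCL020W, the coat protein gene of a Ty retrotransposon, rose and was at 1.56 and 1.32 (mean 1.44 ± 0.17, n = 2, limma adjusted p = 0.00569). YAR010C and YFL-TyA, also Ty genes and chosen after their values were seen, averaged 0.75 and 1.06 and passed; Ty genes were not counted as a group. Ty copies are nearly identical, and YCL020W overlaps YCL019W, so these spots cannot be assigned to 1 copy.

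Sugar and lipid genes showed a few rises. The low-affinity glucose transporters HXT3, at 0.88 and 1.07, and HXT1, at 0.60 and 0.91, rose by means of 0.97 ± 0.13 and 0.76 ± 0.22 (SD, n = 2, limma adjusted p = 0.0173 and 0.0348). They were the 2 calls among 15 hexose transporters (13.3%, against 2.03% of all genes tested), which had a median of 0.26. HXT2, a high-affinity transporter chosen after its values were seen, stood at −0.73 and −0.45 (adjusted p = 0.0624). ERG7 and ERG1, which encode the lanosterol synthase and squalene epoxidase of ergosterol synthesis, averaged 1.08 and 0.72. They were the 2 rises among 25 genes (8.0%, against 1.44% of all genes tested) with a median of −0.01. PDR5, the main drug efflux pump, was at 0.67 and 0.99 (adjusted p = 0.0306), the only one of 13 drug resistance genes to pass. Glycolysis and fermentation had 0 calls of 25, with ALD6 at a mean of −0.61 and PFK1 at 0.57.

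Cell cycle and signalling lists held isolated rises. SWE1, the kinase that holds back mitotic Cdc28, was at 1.13 and 0.66 (mean 0.89 ± 0.34, SD, n = 2, limma adjusted p = 0.026), 1 of 21 genes of the G1/S list. G2/M genes had 0 calls of 21, although 13 (61.9%) were above 0 on both arrays and 0 below on both, and their median was 0.19. AMN1 and ALK1 were the highest of them, at 0.48 and 0.45. FIG1, a membrane protein of mating, was at 1.76 and 1.06 (adjusted p = 0.02), and KDX1, a kinase related to the cell wall pathway, was at 1.30 and 1.10 (adjusted p = 0.0192). Each was the 1 call of its list, of 20 pheromone and 32 cell wall genes. GLN3, the activator of genes for poor nitrogen sources, averaged 0.74 (adjusted p = 0.0424), 1 of 14. NOP12 averaged 1.21 (limma adjusted p = 0.00376), the 1 call among 99 ribosome biogenesis genes (1.01%, against 2.03% of all genes tested).

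Among the 28 genes that fell, the 5 with the lowest means were IDs without a symbol on the right arm of chromosome XII. YLR236C was at −2.63 and −2.19, a mean of −2.41 ± 0.31 (SD, n = 2, 5.3-fold lower, limma adjusted p = 0.00265). YLR162W averaged −1.97 ± 0.31, YLR122C −1.95 ± 0.16, YLR012C −1.80 ± 0.14 and YLR161W −1.61 ± 0.33, with adjusted p of 0.00242, 0.00125, 0.00125 and 0.00376. No role is given here for these 5 genes. The same arm held 9 of the 28 falls and 2 of the 68 rises, among 365 IDs tested with a median of −0.006. Among its 309 tested IDs with a symbol, 3 fell and 2 rose (1.62% called, against 2.03% of all genes tested). YLR162W, YLR122C, YLR012C and YLR161W also ran close together in the zinc comparison of the wild type, at means of −1.19, −1.19, −1.23 and −1.15. Whether their probes share sequence was not tested, so they may not be separate falls. YLR161W and YLR162W carry neighbouring names; the others lie apart on the arm.

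**Figure D3:**
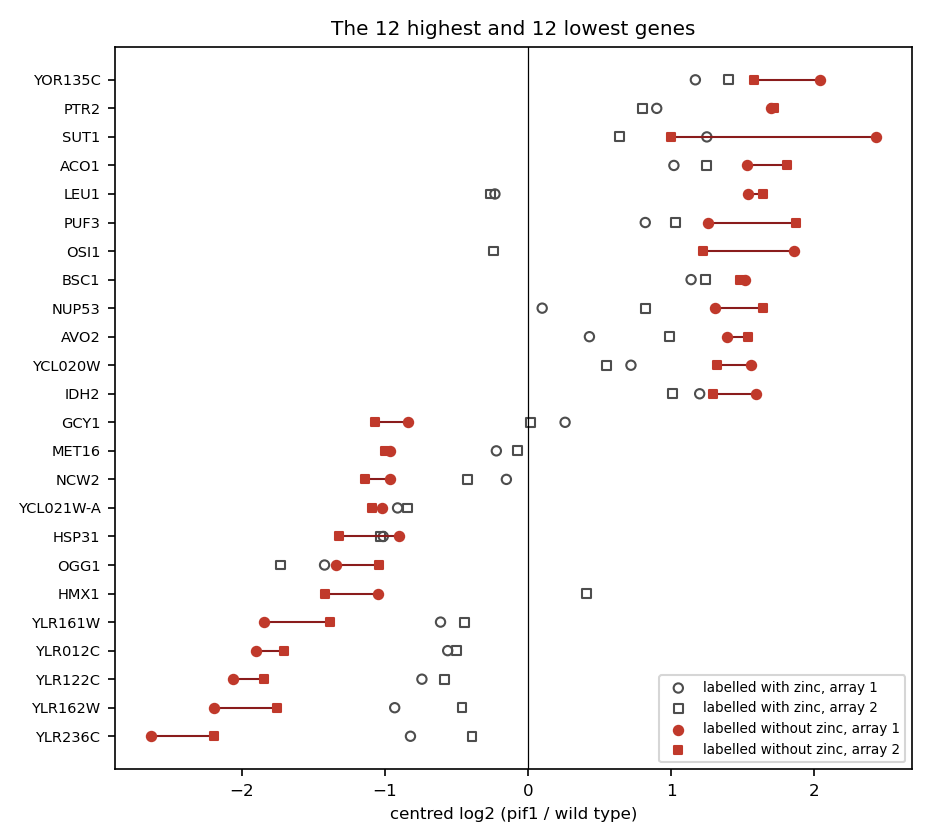
Centred log2 ratio of pif1 over wild type for the 12 genes with the highest and the 12 with the lowest means among those past the threshold. Open grey symbols are the 2 arrays labelled with zinc and filled red symbols the 2 labelled without zinc, joined by a line. PTR2 lies at 1.70 and 1.72 without zinc, and LEU1 lies left of 0 on both arrays labelled with zinc.

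Genes of heat shock and general stress leaned downwards in pif1, with a number of calls that depends on the spread used. Of 30 heat shock chaperone genes, 3 fell and 1 rose (13.3%, against 2.03% of all genes tested), and the median was −0.33. On both arrays 22 (73.3%) lay below 0, against 32.3% of all genes tested. HSP31, a small protein of the DJ-1 family, was at −0.90 and −1.32, a mean of −1.11 ± 0.30 (SD, n = 2, 2.16-fold lower, limma adjusted p = 0.022). CPR6, a partner of Hsp90, averaged −0.70 and FES1, an exchange factor of Hsp70, −0.68 (adjusted p = 0.0324 and 0.0431). The falls in this list numbered 1 with a dye term, 10 with a replicate block and 13 on the spread of the 2 arrays alone.

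SSA3, an Hsp70 gene, went the other way, at 0.86 and 0.80 (adjusted p = 0.0384, limma). Its relative SSA4, chosen after its values were seen, was at −1.74 and −1.55 and did not pass (adjusted p = 0.194). BTN2, chosen in the same way, was at −1.29 and −0.92 (adjusted p = 0.0582). In the general stress list GCY1, a reductase of glycerol metabolism, was at −0.84 and −1.07 (adjusted p = 0.022), and MSC1 averaged −0.72 (adjusted p = 0.022). With SSA3 as the 1 rise, 2 of 45 fell (6.67% called), and the median was −0.25, with 29 (64.4%) below 0 on both arrays. The falls numbered 9 with a replicate block and 15 on the spread of the 2 arrays alone.

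Folding in the endoplasmic reticulum and protein degradation showed the same lean. ERO1, the oxidase that drives disulfide formation in the endoplasmic reticulum, was at −0.94 and −0.91, a mean of −0.93 ± 0.02 (SD, n = 2, 1.9-fold lower, limma adjusted p = 0.011). It was the 1 call of 19 (5.26%, against 2.03% of all genes tested), and the list's median was −0.31. Of the 19, 15 (78.9%) lay below 0 on both arrays, against 32.3% of all genes tested. SIL1, an exchange factor of the chaperone Kar2, was at −0.49 and −1.07 (adjusted p = 0.0821). Proteasome genes had 0 calls of 34, a median of −0.23 and 28 (82.4%) below 0 on both arrays. UFD1, which feeds substrates to the proteasome, was at −0.55 and −0.47.

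The sulfur, iron and zinc lists each held 1 or 2 falls. MET16, the reductase of sulfate assimilation, was at −0.96 and −1.0, a mean of −0.98 ± 0.03 (SD, n = 2, limma adjusted p = 0.0235). MUP3, a methionine permease, was at −0.97 and −0.91 (adjusted p = 0.0184). They were the 2 falls among 25 sulfate and methionine genes (8.0%, against 0.593% of all genes tested), with a median of −0.23. On both arrays 17 (68.0%) lay below 0, against 32.3% of all genes tested. The falls numbered 5 with a replicate block, 10 on the spread of the 2 arrays alone and 1 among IDs with a value on all 8 arrays. STR3, a lyase that makes homocysteine, was at −1.38 and −1.34 and missed the threshold (adjusted p = 0.0541).

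HMX1, the heme oxygenase that releases iron from heme, was at −1.05 and −1.42, a mean of −1.24 ± 0.26 (n = 2, 2.36-fold lower, limma adjusted p = 0.0105). It was the 1 fall of 27 iron regulon genes, whose median was −0.09; FIT2, a cell wall protein of siderophore retention, was at −0.59 and −0.82 (adjusted p = 0.139). In the list of zinc transport and targets of the zinc sensor Zap1, 1 of 20 passed: IZH1, a membrane protein of zinc homeostasis, at −0.59 and −0.64 (adjusted p = 0.0486). MCD4, a Zap1 target of membrane anchor synthesis, was highest in that list, at 0.80 and 0.62 (adjusted p = 0.0624), and the median was −0.05. FLR1, a drug exporter, averaged −0.69 (adjusted p = 0.0277), the fall that stands beside CCP1 among 39 oxidative stress genes with a median of −0.11. PHO89, a phosphate transporter, and ARG4, of arginine synthesis, each averaged −0.66 and were the single calls of 22 and 13 genes. YCL021W-A and NCW2, a cell wall protein, completed the 12 lowest, at means of −1.06 and −1.05.

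**Figure D4:**
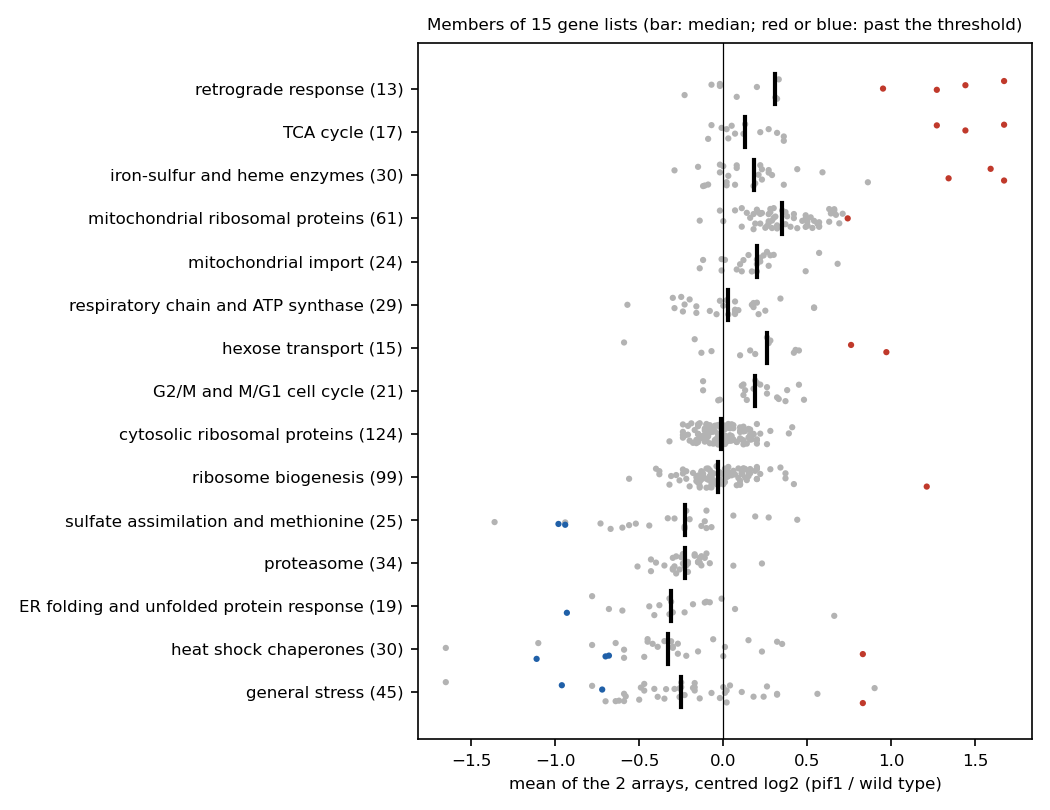
Mean centred log2 ratio of pif1 over wild type for each tested member of 15 gene lists, with the number tested in brackets. Points are genes, red ones higher and blue ones lower past the threshold, and black bars are list medians. Mitochondrial ribosomal proteins have the median farthest above 0 of these lists (0.35) and heat shock chaperones the one farthest below (−0.33).

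The arrays labelled with zinc show how the same genes stood in pif1 against wild type. From here on, with and without zinc name the labels of the arrays, not a tested medium. Of the 68 genes that rose on the arrays labelled without zinc, 64 had a value on both arrays labelled with zinc. Of these, 52 (81.2%) were above 0 on both, against 26.9% of all genes tested, and 5 were below 0 on both. Of the 28 that fell, 25 had values and 21 (84.0%) were below 0 on both, against 28.2%, and 4 were above 0 on both. The genes were selected on the arrays labelled without zinc, and their median was 0.45 with zinc against 0.94 without for the rises, and −0.36 with zinc against −0.93 without for the falls. Mitochondrial ribosomal proteins had a median of 0.27 with zinc, and 0.35 without, over 61 genes each. The TCA cycle genes had a median of −0.05 over 16 genes with zinc, and 0.13 over 17 without. Its 3 called genes stayed above 1 on both arrays labelled with zinc: ACO1 averaged 1.13 with zinc and 1.67 without, IDH1 1.17 with zinc and 1.27 without, and IDH2 1.11 with zinc and 1.44 without. Some other genes named above had means of the other sign. LYS4 averaged −0.09, CCP1 −0.41, HAP4 −0.27 and GCY1 0.14 with zinc, each of opposite sign to its mean without. LYS4 and GCY1 lay near 0 with zinc, at −0.18 and −0.0 and at 0.26 and 0.02. None of these genes passed the test of the difference described below (limma adjusted p = 0.076, 0.0836, 0.0836 and 0.194). Iron-sulfur and heme enzymes had a median of −0.03 with zinc and 0.19 without, and general stress genes 0.12 with zinc and −0.25 without.

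The difference between the pif1 effects labelled with zinc and without was tested in the same fit over 4468 genes with a value on all 4 arrays, as with zinc minus without. Only 6 genes (0.134%) passed, 3 in each direction (0.0671% each), and 221 were under 0.05 without adjustment. LEU1 was at −0.23 and −0.26 on the arrays labelled with zinc, and at 1.54 and 1.64 on those without. Its difference was −1.84 with an SE of 0.188 (limma adjusted p = 0.0124), and it is the only one of the 6 that was among the 96 calls. GPX2, a glutathione peroxidase, was at −2.57 and −2.56 with zinc, and at −0.12 and 0.22 without, a difference of −2.61 (SE 0.233, adjusted p = 0.00805). ROX1, the repressor of hypoxic genes, was at −1.51 and −1.28 with zinc, and at 0.39 and 0.05 without (difference −1.61, adjusted p = 0.0231).

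The other 3 genes were higher in pif1 over wild type on the arrays labelled with zinc. HSP26, a small heat shock protein, was at 2.67 and 1.48 with zinc, and at −0.62 and −0.95 without (difference 2.86, SE 0.364, limma adjusted p = 0.0231). FIT1 and ARN2 serve siderophore iron uptake. FIT1 was at 1.48 and 1.5 with zinc, and at −0.17 and −0.40 without (difference 1.78, adjusted p = 0.013). ARN2 was at 1.16 and 1.25 with zinc, and at −0.52 and −0.24 without (difference 1.59, adjusted p = 0.0189). For all 6 the sign of this difference is opposite to that of the zinc effect in pif1 minus the zinc effect in the wild type, as with the loop described above. For HSP26 the zinc effect averaged 3.31 in pif1 and 6.64 in the wild type, for example. ACO1, IDH1 and IDH2 gave no call for the difference (adjusted p = 0.808, 1.0 and 1.0).

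**Figure D5:**
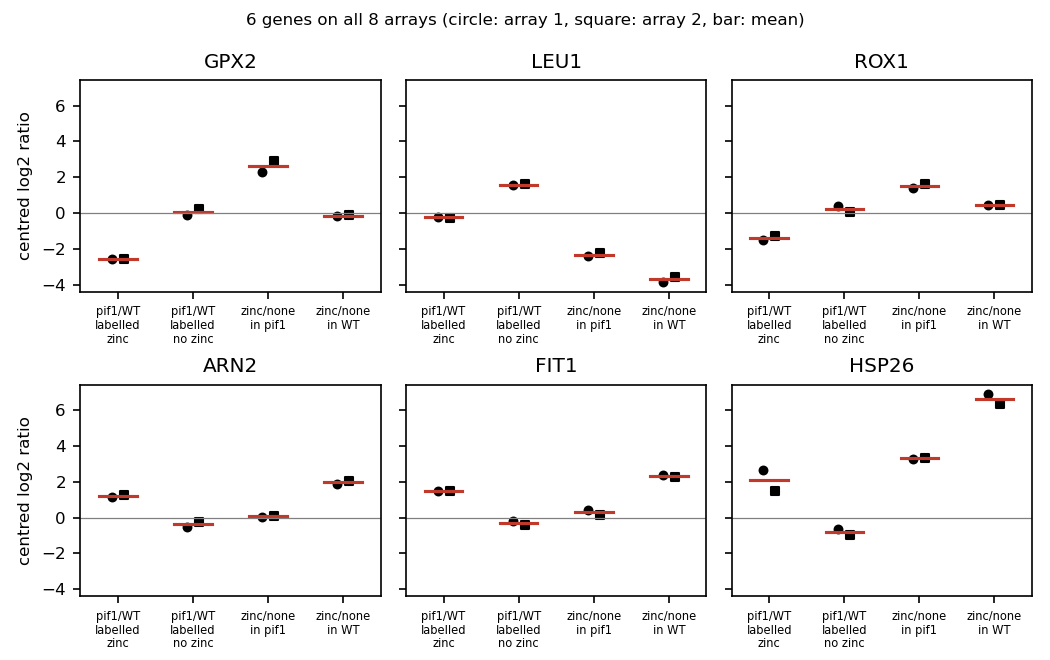
Centred log2 ratios of the 6 genes past the threshold for the difference, on all 8 arrays. Each panel shows pif1 over wild type labelled with zinc, the same labelled without zinc, and zinc over no zinc within pif1 and within the wild type; circles are array 1, squares array 2 and red bars means. In the zinc comparison of the wild type HSP26 reaches 6.90, and LEU1 stands at −3.86.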

How the data were processed

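The deposited table holds log2 ratios, 1 column per array, for 8 spotted 2-colour arrays. Per the labels, labelled cDNA was made with an oligo(dT) primer from 8 ug of total RNA, and small spots (diameter limit 120 um) or dim ones (limit 100 units in the Cy3 and Cy5 channels) were discarded by the authors. The scanner's software, the normalization, the log base and any background correction are not given in the sources used here, so signal over background is unknown, and 2 arrays limit the precision.

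Both PIF1 entries beyond 16 in size were treated as missing, and arrays were then centred at a median of 0. limma 3.58.1 in R 4.3.3 (lmFit, eBayes) fitted 4 comparisons to 8 arrays. Benjamini-Hochberg adjustment ran over all IDs tested, with a threshold of 0.05. Symbols came from NCBI's R64 gene table, which matched 5662 of 6212 IDs. Arms come from systematic names, and overlaps between genes from the positions in that reference. The script was tested on simulated data.

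Of 52 gene lists, 1 had no tested member. Members and lists were chosen with earlier results of these data known, and counts and medians, without a test, describe them. Named genes are PIF1 and its 3 neighbours on each side, the 12 highest and 12 lowest calls, up to 4 calls of lists with at least 3, 2 members at most of other lists, and genes called for the difference. After the data were seen, CTF19 and RPP1 were removed from the phosphate and cytosolic ribosomal lists, where they had been matched in error; RPP1, of RNase P, is 1 of the calls. A further gene was left out of its list and is not reported here.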

Additional observations from a re-analysis of the deposited data

Results flagged for a closer look

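For 6 genes the pif1 effect differed between the arrays labelled with zinc and those labelled without zinc, in a test of the difference itself (with zinc minus without, limma, adjusted over 4468 genes). The differences were −2.61 for GPX2, −1.84 for LEU1, −1.61 for ROX1, 1.59 for ARN2, 1.78 for FIT1 and 2.86 for HSP26. In each of the 6, both arrays with zinc lay on the same side of both arrays without zinc.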

How the results depend on the processing

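All 96 calls kept their direction under every alternative in which they were tested, while the count moved. The kept direction is no support. Most alternatives keep the mean of the same 2 arrays and change only the spread. Each call also has the same sign on both arrays, so leaving out 1 array cannot turn it. In the order all, higher and lower, it was 440, 282 and 158 with arrays scaled to 1 spread, 436, 252 and 184 with arrays set to 1 distribution, 212, 144 and 68 with the 4 mutant arrays only, and 592, 400 and 192 with the 2 arrays only. With a replicate block it was 291, 202 and 89; the labels do not say that numbers mark shared cultures, and the half-differences of arrays correlated between comparisons at 0.393 to 0.5102. A dye term left 16 lower calls, and IDs with a value on all 8 arrays gave 17. Leaving out either array gave 0 to 12 calls, 0 to 7 higher and 0 to 5 lower. Outside leaving out an array, the TCA and retrograde lists kept 2 to 3 and 3 to 4 calls, and iron-sulfur enzymes 3 to 6. Values as deposited gave 100 calls, 91 of them shared, and a robust prior gave 98. The difference between media gave 36 calls when scaled, 33 with 1 distribution, 16 with the replicate block, 15 with the 4 mutant arrays, and 0 to 2 when leaving out 1 array, where LEU1 and the others kept their sign. With 1 array left out, signs turned for NTE1 and SAG1 without replicate 1, and for RPL41A, HIS3 and GPX2 without replicate 2, none of them called. Over the 2 such settings the values ran over −0.38 to 0.19 for NTE1, −0.03 to 0.31 for SAG1, −0.24 to 1.05 for RPL41A, −0.42 to 0.21 for HIS3 and −0.12 to 0.22 for GPX2. The cause of these changes was not tested, except that leaving out an array leaves fewer values. Spots dim enough to be discarded before deposit limit what can be seen: 360 IDs had a value on array 2 only and 30 on array 1 only.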

Other observations

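In a number of further lists without any call, more genes lay on 1 side of 0 on both arrays than among all genes tested (32.1% above and 32.3% below). They include 2 small lists, DNA helicases (6 of 13, 46.2%, above and 4 below) and copper genes (4 of 9, 44.4%, below and 2 above). A further 3 are described here. Purine synthesis genes had a median of −0.13 and 11 of 19 (57.9%) below 0 on both arrays, with IMD2 and IMD3, which encode the enzyme that starts GMP synthesis, at means of −0.52 and −0.46. Vacuolar proton pump genes had a median of −0.15 and 9 of 15 (60.0%) below 0 on both arrays, with VMA3, of its membrane ring, at −0.36 and −0.50. Histone genes lay slightly upwards, with a median of 0.11 and 6 of 10 (60.0%) above 0 on both arrays, and HHF2, a histone H4 gene, was at 0.28 and 0.50. None of these genes passed the threshold.

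Some genes stood far from 0 without a call. TIR3, a cell wall mannoprotein of hypoxic cells, was at 1.77 and 1.06 (limma adjusted p = 0.0559). GAC1, a subunit of the phosphatase that controls glycogen synthesis, was at 1.11 and 0.68 (adjusted p = 0.0582). ATG31, of autophagy, was at 1.30 and 0.25 (adjusted p = 0.225), with arrays far apart.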
